A study of Mus musculus with 7 samples.

Results

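The genes described here are 55 mouse genes of G2 and M phase, the stretch of the cell cycle in which a cell checks its copied DNA, builds a spindle and divides. They were chosen by symbol, as a list of mitosis genes that includes the transcription factor Foxm1 and the proliferation antigen Mki67, and all 55 were found by symbol among the 49315 mouse genes of each count file. RNA of pancreatic islets was sequenced from 4 pools of βNrf2KO mice, which carry a β-cell specific Nrf2 deletion, and from 3 pools of Nrf2lox/lox mice, which carry the loxP-flanked Nrf2 allele and serve as controls. All mice were 7 days old, and per the labels each pool held RNA of 5 animals, so the spread reported is between pools and not between animals. No source used here names the promoter that drives Cre in βNrf2KO mice. The stated aim of the series is to find how Nrf2 stimulates β-cell proliferation in neonatal islets, and the mitosis genes are a transcript readout of dividing cells. Whole islets were sequenced, so β-cells and other dividing islet cells were read together.

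Entry into mitosis is driven by the kinase Cdk1 bound to cyclins, and exit by the anaphase-promoting complex, which marks cyclins and securin for destruction. The genes of this programme are transcribed late in the cycle by the transcription factors B-Myb (gene Mybl2) and FoxM1 together with the MuvB complex, and are silent in resting cells. Neonatal mouse β-cells divide and lose most of this activity as they mature, and FoxM1 is known in mice to be needed for the growth of β-cell mass after birth.

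Many promoters of this programme carry a short element close to the start of transcription, the cell cycle genes homology region (CHR), which the MuvB complex binds. It was searched here as TTTGAA, which reads TTCAAA on the opposite strand, and as the palindrome TTCGAA. The CCAAT box, which reads ATTGG on the opposite strand and is bound by the factor NF-Y, was searched too, in windows of 250 bases before to 50 after the start in RefSeq (GRCm38.p6). The table held a window for 45 of the 55 genes. Foxm1, Ccna2, Aurkb, Tpx2, Kif20a, Dlgap5, Pbk, Smc4, Cdc25c and Cdca2 had no window, so their promoters were not searched. Of these 45 windows, 35 (77.8%) held a CHR element, against 13.8% of the 12646 windows of all genes tested in these islets. Within 50 bases of the start the shares were 68.9% of the mitosis genes and 3.42% of the tested genes. A CCAAT box was found in 75.6% of the 45 windows against 37.8% of the tested genes, and both elements together in 66.7% against 5.63%. A match is a string of letters and was not tested for binding here. The 120 bases before the start are printed for 8 of the genes with a window, with CHR and CCAAT matches in capitals (GRCm38.p6, each 5′ to 3′ on the strand of its gene).
Mki67, chr7:135716380-135716499, minus strand: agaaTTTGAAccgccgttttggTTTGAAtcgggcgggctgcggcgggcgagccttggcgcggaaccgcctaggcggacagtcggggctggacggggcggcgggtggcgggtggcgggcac
Cdk1, chr10:69352913-69353032, minus strand: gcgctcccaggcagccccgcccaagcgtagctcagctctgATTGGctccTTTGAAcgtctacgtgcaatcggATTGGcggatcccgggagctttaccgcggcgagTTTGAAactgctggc
Cdc20, chr4:118437344-118437463, minus strand: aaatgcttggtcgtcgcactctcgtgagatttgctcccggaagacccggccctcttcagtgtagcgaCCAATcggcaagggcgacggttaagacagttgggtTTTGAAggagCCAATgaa
Ube2c, chr2:164769809-164769928, plus strand: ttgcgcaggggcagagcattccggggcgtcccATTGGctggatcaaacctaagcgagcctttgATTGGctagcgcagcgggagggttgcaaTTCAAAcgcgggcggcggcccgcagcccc
Hmgb2, chr8:57511723-57511842, plus strand: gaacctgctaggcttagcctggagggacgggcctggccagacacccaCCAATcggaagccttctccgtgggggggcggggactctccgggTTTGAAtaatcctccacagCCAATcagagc
Ccnb1, chr13:100786487-100786606, minus strand: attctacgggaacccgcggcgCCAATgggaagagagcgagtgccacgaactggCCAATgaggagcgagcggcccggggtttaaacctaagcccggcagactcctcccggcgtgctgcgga
Cdc25b, chr2:131186828-131186947, plus strand: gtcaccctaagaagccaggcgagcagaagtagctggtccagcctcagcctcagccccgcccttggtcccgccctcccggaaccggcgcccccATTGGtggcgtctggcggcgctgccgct
Mybl2, chr2:163054515-163054634, plus strand: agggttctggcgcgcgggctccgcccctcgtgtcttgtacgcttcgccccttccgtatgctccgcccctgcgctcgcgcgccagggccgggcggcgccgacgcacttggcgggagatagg
The stretches of Mki67 and Cdk1 hold 2 CHR elements each and those of Cdc20, Ube2c and Hmgb2 hold 1 each, while the CHR match of Cdc25b starts 8 bases after the transcription start, past the bases shown. No match to the CHR strings searched here lies in the windows of Ccnb1 and Mybl2. The same holds for the windows of Birc5, Cenpe, Cks2, Gtse1, Nuf2, Nusap1, Pttg1 and Tacc3. Other forms of the element were not searched, so the absence of a match does not show that these genes lack it.

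The pools held 18187382 to 25373105 counts, with every control pool deeper than every βNrf2KO pool. The mitochondrial genome took 10.02% to 27.7% of the counts in βNrf2KO pools and 14.6% to 51.8% in control pools, so all levels below are scaled by TMM (trimmed mean of M-values) library factors and given as CPM, the count scaled to the same library size in every pool. After this scaling control pools 1 and 2 were the smallest libraries, at 17603900 and 15149300. Control pool 4 stood at 30095200 and the βNrf2KO pools at 18688100 to 27213400. Nfe2l2, the gene of Nrf2, stood at 57.8 to 67.4 CPM in βNrf2KO pools and 43.2 to 86.2 CPM in control pools, which does not check the deletion, since other cells and undeleted exons are counted too. The Cre recombinase entry held 23 to 73 counts in the βNrf2KO pools and 0 in each control pool. Islet identity was clear from Ins2, at 22403 to 31837 CPM in βNrf2KO pools and 8280 to 25592 CPM in control pools. The 10 β-cell markers summed to 33757 to 46174 CPM in βNrf2KO pools and 16934 to 47856 CPM in control pools. Their median log2 fold change (βNrf2KO minus control) was 0.37. The markers did not all move alike, with Ins1 at -0.66 and Mafa at -0.78. Mafa had 7.13 to 10.7 CPM in βNrf2KO pools and 12.2 to 16.9 CPM in control pools. Fibroblast and pericyte markers were present too, with 10 of 10 detected and a summed level of 994 to 1654 CPM in βNrf2KO pools and 1053 to 2774 CPM in control pools. Of these, 7 were lower in βNrf2KO at an unadjusted p under 0.05 in the edgeR test, against 5.23% of all tested genes. Markers of Schwann cells and neurons, with 5 of 5 detected, summed to 36.9 to 50.2 CPM in βNrf2KO pools and 53.3 to 90.5 CPM in control pools, which did not overlap, and 2 of the 5 were lower at the same p.

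Mitosis genes were well measured in these islets. All 55 passed the filter on low counts, with 27 to 8374 counts per gene and pool. Summed over the 55 genes, βNrf2KO pools 1, 2, 3 and 4 held 995, 1041, 1241 and 1007 CPM, against 983, 1199 and 1391 CPM in control pools 1, 2 and 4. The means were 1071 ± 115 CPM (SD, n = 4) in βNrf2KO and 1191 ± 204 CPM (SD, n = 3) in control islets, and the pools overlapped. Mki67 held a large part of these sums. Without Mki67 the means were 881 ± 101 CPM (SD, n = 4) in βNrf2KO and 949 ± 161 CPM (SD, n = 3) in control islets. In bulk RNA, fewer dividing cells and less RNA per dividing cell cannot be told apart.

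Levels between genes were compared per length, as CPM per kilobase of exon (RPKM). Tubb4b, a β-tubulin that is also used outside mitosis, led with a mean of 35.7 RPKM over the 7 pools, followed by Mki67, a surfactant-like coat protein of mitotic chromosomes, at 21.1 RPKM. Hjurp, the chaperone that places the centromeric histone CENP-A, came next at 14.0 RPKM, and Hmgb2, a chromatin protein of dividing cells, stood at 11.9 RPKM. Only these 4 genes exceeded 10 RPKM, the median of the 55 was 2.52 RPKM, and the lowest was the kinesin Kif2c at 0.675 RPKM. Hjurp was also the steadiest member, at 104 to 124 CPM in βNrf2KO pools and 113 to 128 CPM in control pools, a range of 0.29 on the log2 scale over all 7 pools. Cenpa, the gene of that histone, was read at a mean of 1.30 RPKM. On the same log2 scale Cks1b, an adaptor of Cdk1, ranged most, by 1.90, with a low value of 2.41 CPM in βNrf2KO pool 1 and 4.16 to 9.24 CPM in the other 6 pools.

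None of the mitosis genes differed past the threshold between βNrf2KO and control islets. With edgeR's quasi-likelihood test and Benjamini-Hochberg adjustment over 19893 tested genes, 0 of the 55 genes passed an adjusted p of 0.05, where 0.00% of all tested genes did, and the adjusted p of the 55 ran from 0.571 to 0.996. DESeq2 and limma-voom also called 0 of the 55. At an unadjusted p under 0.05 there were 2 genes lower, Foxm1 and Cdc25b, which is 2 of 55 against 5.23% of all tested genes, and 0 genes higher, against 3.23%. The log2 fold change (βNrf2KO minus control) was below 0 for 40 of the 55, against 50.6% of all tested genes. Many of the 55 were high or low in the same pools, so such counts, here and below, are not counts of independent genes. They cannot show by themselves that the groups differ. The median of the 55 was -0.18, against -0.01 for all tested genes, and the values ran from -0.47 to 0.42 with standard errors (SE) of 0.14 to 0.39. Without control pool 4 the median was -0.02 and 29 of the 55 were below 0 (50.5% of all tested genes), with 2 lower (9.32%) and 3 higher (7.64%) at an unadjusted p under 0.05 by edgeR. Without control pool 1 there were 49 below 0 (49.5%), 8 lower (7.38%) and 0 higher (6.75%), and without βNrf2KO pool 3 there were 52 below 0 (50.3%). Without control pool 2 there were 50 below 0, with a median of -0.18, and 0 lower and 0 higher at the same p. The shares of all tested genes were not computed for that fit.

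**Figure D1:**
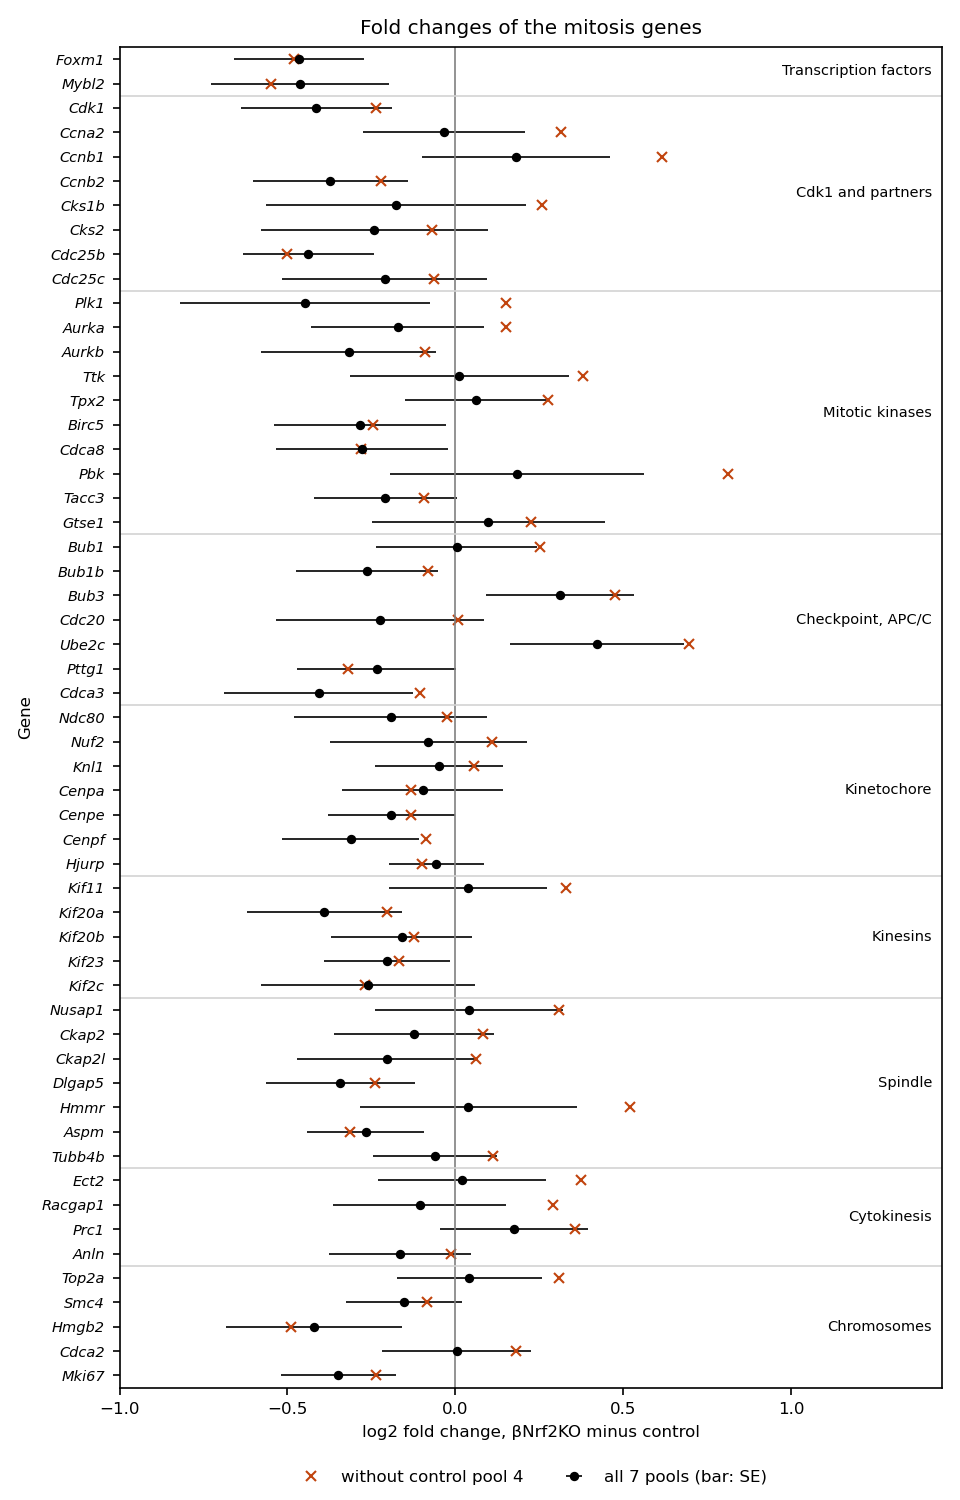
Log2 fold change of each of the 55 mitosis genes (βNrf2KO minus control, 4 against 3 pools), with black points for the fit of all 7 pools and bars for 1 SE, and red crosses for the same fit without control pool 4. Of the black points 40 lie below 0, against 29 of the crosses. Foxm1, Mybl2 and Cdc25b, which were highest in control pool 2, change little between the fits, while Ccnb1, Pbk and Plk1 move to the right. Without control pool 2, a fit not drawn here, Foxm1, Mybl2 and Cdc25b stood at -0.29, -0.30 and -0.24.

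Pools with the same number deviated together from their group means across all genes, so the comparison was also fitted with the number as a block. This pairing was not clear-cut. Pools numbered 2 correlated at r = 0.229, below the r = 0.241 of βNrf2KO pool 3 with control pool 4, which differ in number. With the block 50 of the 55 genes were below 0 (49.5% of all tested genes), with a median of -0.24 against 0.00 for all tested genes. There was no control pool 3, so βNrf2KO pool 3 added nothing to the difference in the block fit. Leaving that pool out without a block gave 52 of the 55 below 0 (50.3% of all tested genes), with a median of -0.235. Whether the pairing or the absence of that pool moved the values was not tested. At an unadjusted p under 0.05 there were 6 genes lower with the block (6.12% of all tested genes) and 0 higher (6.02%). These 6 were Foxm1, Cdc25b, Mki67, Hmgb2, the kinesin Kif20a, which works in cytokinesis, and Dlgap5, a microtubule-binding spindle protein. None of the 55 passed after adjustment in the block fit, where the smallest adjusted p by edgeR was 0.307, and 14 of all tested genes did (0.0704%). Within the pairs, the 55 genes were lower in βNrf2KO than in control for 30 genes in pools 1 (50.4% of all tested genes), 40 in pools 2 (47.8%) and 53 in pools 4 (49% of all). The median difference was -0.02 log2 CPM in pools 1, -0.22 in pools 2 and -0.46 in pools 4. A total of 23 genes were lower in all 3 pairs (17.9% of all tested genes), and 0 were higher in all 3 (19.1%).

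**Figure D2:**
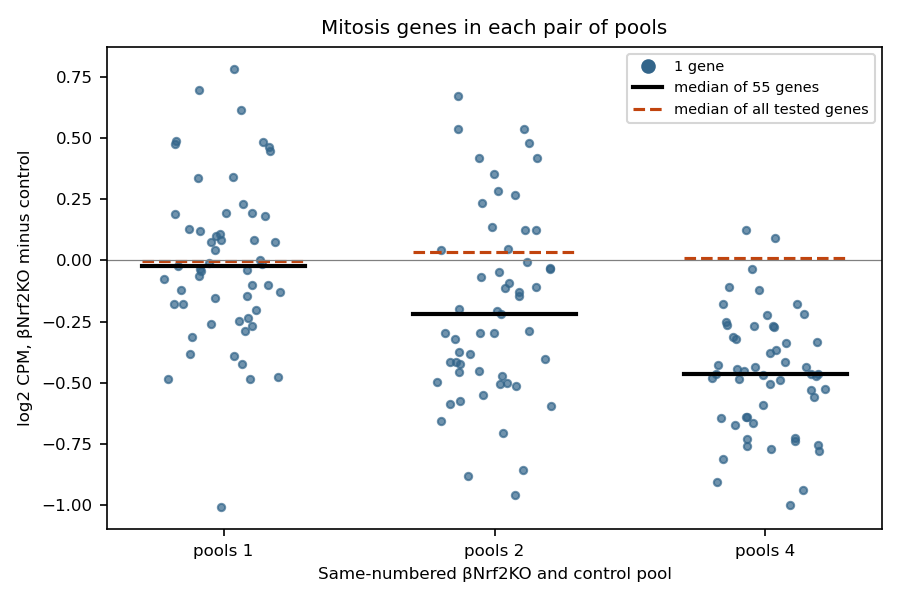
Difference in log2 CPM between the βNrf2KO and the control pool of the same number, with 1 point for each of the 55 mitosis genes, a black line at their median and a dashed line at the median of all tested genes. The median of the 55 lies at -0.02, -0.22 and -0.46 in pools 1, 2 and 4, and the βNrf2KO pool was lower for 53 of the 55 genes in pools 4.

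Levels of many of the genes were high or low in the same pools. Control pool 4 was the highest of the 7 pools for 31 of the 55 genes (56.4%), against 12.8% of all tested genes, and the lowest for 0 (11.6%). The next pools by this count were control pool 2, highest for 11 genes (26.4% of all tested genes), and βNrf2KO pool 3, highest for 10 (14.3%). The lowest value was most often in βNrf2KO pool 1, for 16 genes (15.9% of all tested genes), and control pool 1, for 12 (11.9%). It was in βNrf2KO pool 2 for 9 genes (16.4% of the 55, against 6.27% of all tested genes). For βNrf2KO pool 4 it was 9 (12.2% of all tested genes), for control pool 2 it was 8 (28.5%) and for βNrf2KO pool 3 it was 1 (13.7%). Taken as the median deviation of the 55 genes from their own mean over the pools, βNrf2KO pools 1, 2, 3 and 4 stood at -0.16, -0.16, 0.22 and -0.08 log2 CPM and control pools 1, 2 and 4 at -0.20, 0.11 and 0.39. Control pool 1 was thus below all 4 βNrf2KO pools by this measure, and βNrf2KO pool 3 above 2 of the 3 control pools. The genes highest in control pool 2 included Foxm1, Mybl2, Cdc25b, Birc5, Aspm and Hmgb2, while Top2a, Ccnb1, Ube2c, Bub1, Bub3, Hmmr, Pbk and Prc1 were lowest there. Control pool 2 also held the highest mitochondrial share (51.8%) and the highest fibroblast and pericyte sum (2774 CPM). Control pool 4 held 14.6% and 1053 CPM on the same measures and the highest sum of the 10 β-cell markers (47856 CPM). The part of these features in the mitosis gene levels was not tested.

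**Figure D3:**
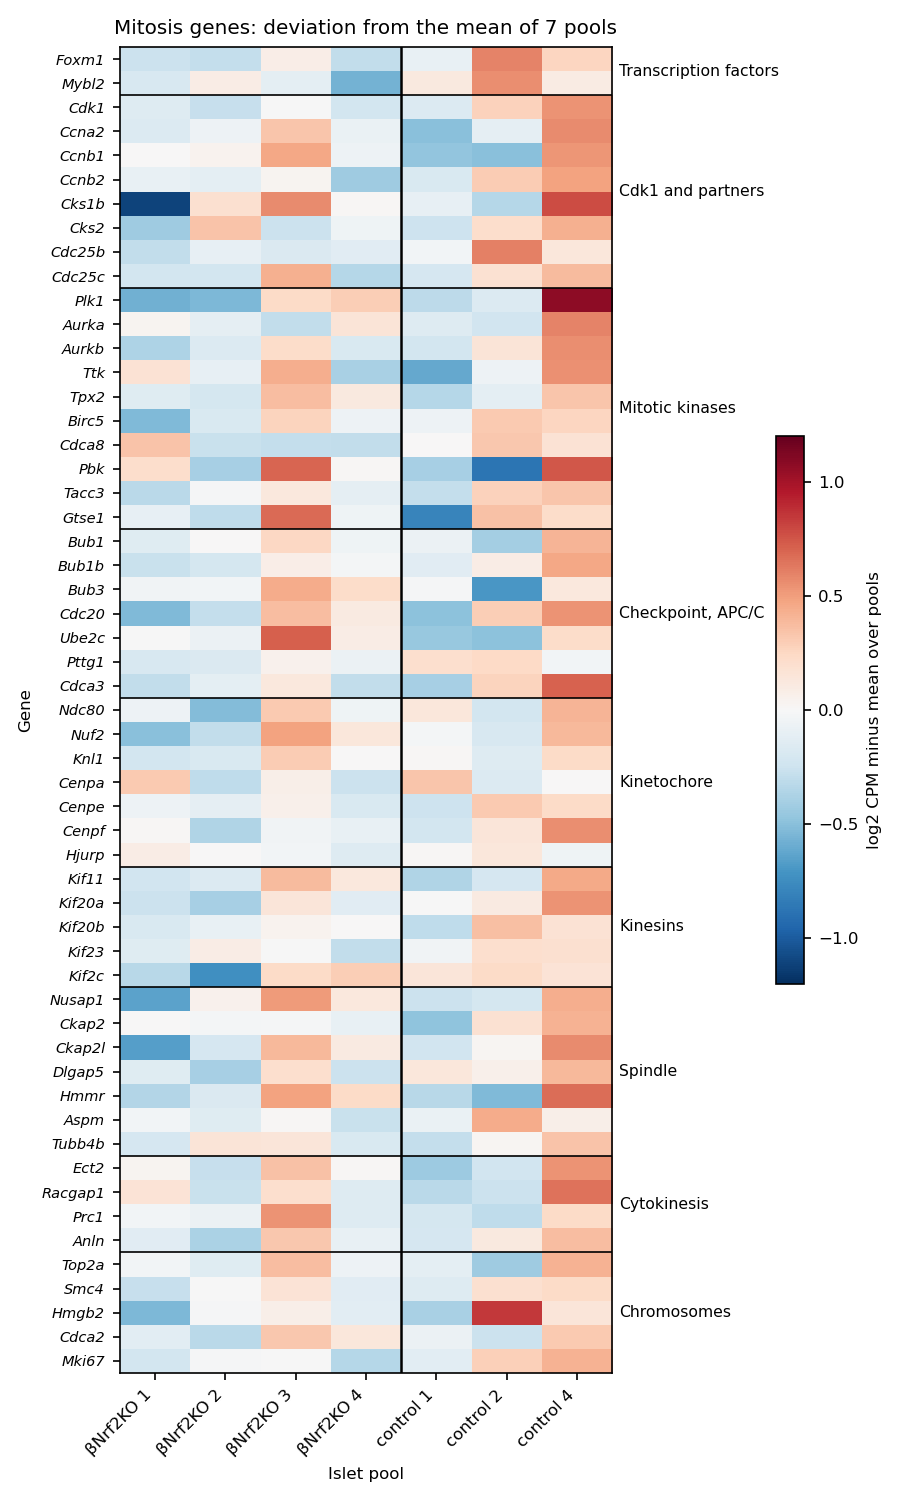
Deviation of each mitosis gene from its own mean over the 7 pools, in log2 CPM, with genes in rows by role and pools in columns, βNrf2KO to the left of the vertical line and control to the right. Control pool 4 is red for most genes, with a median deviation of 0.39, βNrf2KO pool 3 follows with 0.22, and control pool 1 is the lowest with -0.20.

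Of the transcription factors, both had lower mean levels in βNrf2KO islets, without passing the threshold. Foxm1 (ENSMUSG00000001517, chromosome 6, 128362967 to 128376146, plus strand, GRCm38) was read at 23.7, 23.3, 30.1 and 23.1 CPM in βNrf2KO pools 1, 2, 3 and 4, against 26.8, 43.0 and 34.1 CPM in control pools 1, 2 and 4. βNrf2KO pool 3 lay above control pool 1, and the other 3 βNrf2KO pools lay below every control pool. The means were 25.0 ± 3.38 CPM (SD, n = 4) and 34.6 ± 8.09 CPM (SD, n = 3) in control, a log2 fold change of -0.47 ± 0.19 (SE, edgeR adjusted p = 0.571, unadjusted p = 0.0337). It was -0.54 ± 0.18 with the block (adjusted p = 0.307 by edgeR), and it stayed below 0 without each pool in turn, between -0.62 and -0.29. The value of -0.29 was that without control pool 2 (edgeR unadjusted p = 0.149). Mybl2 (ENSMUSG00000017861, chromosome 2, 163054687 to 163084688, plus strand) was read at 3.64, 4.45, 3.84 and 2.79 CPM in the βNrf2KO pools and 4.54, 6.20 and 4.49 CPM in the control pools. Its groups did not overlap, but βNrf2KO pool 2 and control pool 4 were almost level, and its log2 fold change was -0.46 ± 0.27 (edgeR adjusted p = 0.590). Mybl2 and Cdc25b were the 2 of 55 genes whose groups did not overlap with βNrf2KO lower (3.81% of all tested genes), and 0 of 55 were apart with βNrf2KO higher (3.19%).

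Foxm1 was also set against Top2a, the topoisomerase that untangles sister chromatids, as a ratio of counts within each pool that no library scaling can alter. The ratio was 0.535 to 0.590 in the 4 βNrf2KO pools and 0.583 to 1.33 in the 3 control pools. The means were 0.558 ± 0.0229 (SD, n = 4) in βNrf2KO and 0.859 ± 0.407 (SD, n = 3) in control, and the highest βNrf2KO pool lay just above the lowest control pool. The ratio of 1.33 was that of control pool 2, where Foxm1 was highest and Top2a lowest of all pools (651 and 491 counts). Control pool 1 held 472 and 708 counts of the same genes and control pool 4 held 1025 and 1757, so the control mean leans on control pool 2. For Mki67 the ratio to Top2a was 3.70 to 5.26 in βNrf2KO and 4.76 to 7.86 in control pools, which overlapped, and the 7.86 was again that of control pool 2.

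**Figure D4:**
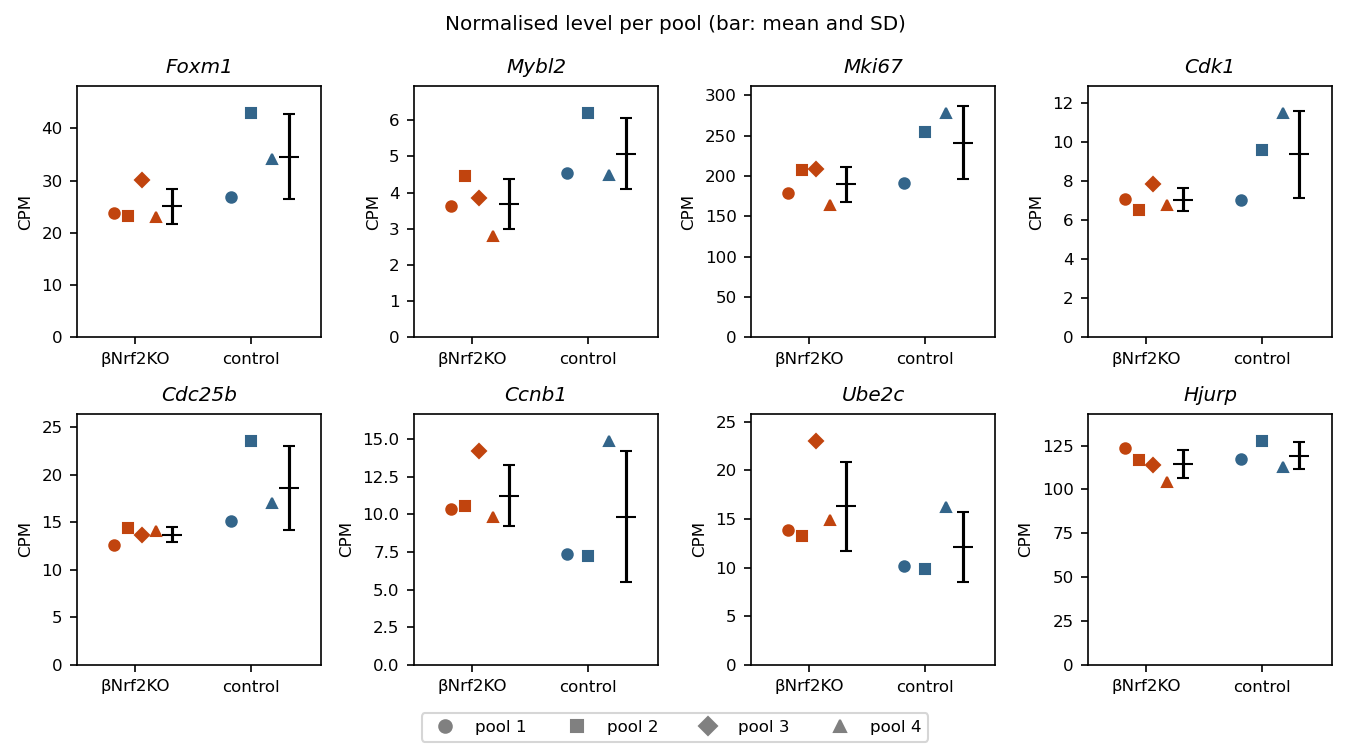
CPM of 8 mitosis genes in each pool, βNrf2KO left and control right, with a marker shape for each pool number and a bar for mean and SD (n = 4 and n = 3). Foxm1, Mybl2 and Cdc25b are highest in control pool 2, Mki67, Cdk1 and Ccnb1 in control pool 4 and Ube2c in βNrf2KO pool 3, while Hjurp is nearly level at 104 to 128 CPM.

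Cdk1 and the proteins that switch it on and off gave 7 of 8 genes with a log2 fold change below 0 and 1 above, with a median of -0.23 (edgeR, 0 of 8 past the threshold). Without control pool 4 there were 5 of 8 below 0, with a median of -0.067. Cdk1, the kinase that drives entry into mitosis, was read at 7.06, 6.51, 7.88 and 6.76 CPM in βNrf2KO pools, against 7.04, 9.57 and 11.5 CPM in control pools 1, 2 and 4. The βNrf2KO pools were within 1 narrow range, while control pool 1 lay inside it and the other control pools above it. Its log2 fold change was -0.41 ± 0.23 (edgeR adjusted p = 0.584). Cdc25b, a phosphatase that activates Cdk1, was read at 12.6, 14.4, 13.7 and 14.1 CPM in βNrf2KO pools and 15.2, 23.6 and 17.0 CPM in control pools, so that every βNrf2KO pool lay below every control pool. This was a log2 fold change of -0.44 ± 0.20 (edgeR adjusted p = 0.571, unadjusted p = 0.0461), between -0.56 and -0.24 without each pool in turn. The value of -0.24 was that without control pool 2 (edgeR unadjusted p = 0.216).

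The cyclins differed from each other. Ccnb2, a B-type cyclin, had 5.92 to 8.16 CPM in βNrf2KO and 6.99 to 11.2 CPM in control pools (log2 fold change -0.37 ± 0.23). Ccna2, the cyclin of S and G2 phase, had 25.6, 27.5, 36.2 and 27.2 CPM in βNrf2KO and 20.2, 26.6 and 42.4 CPM in control pools, with a difference of -0.03 ± 0.24. Ccnb1, the main mitotic cyclin, had 10.3, 10.6, 14.2 and 9.85 CPM in βNrf2KO and 7.38, 7.26 and 14.9 CPM in control pools, and its log2 fold change of 0.18 ± 0.28 was the only one above 0 in this group (edgeR adjusted p = 0.825). Control pools 1 and 2 lay below every βNrf2KO pool for Ccnb1 and control pool 4 above every one. Without control pool 4 it was 0.62 (edgeR unadjusted p = 0.0279), and without control pool 2 it was -0.0029. The count ratio of Ccnb1 to Ccna2 was 0.362 to 0.403 in βNrf2KO and 0.273 to 0.365 in control pools. The adaptors Cks1b and Cks2, which tether Cdk1 to its substrates, differed by -0.18 ± 0.39 and -0.24 ± 0.34, and Cdc25c, a phosphatase like Cdc25b, by -0.21.

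Among the mitotic kinases and their partners 6 of 10 genes were below 0 and 4 above, with a median log2 fold change of -0.19 (edgeR, 0 of 10 past the threshold), and the median was 0.15 without control pool 4. Plk1, the polo-like kinase of spindle poles and kinetochores, was read at 3.64, 3.74, 6.42 and 6.72 CPM in βNrf2KO pools, against 4.37, 4.88 and 11.6 CPM in control pools 1, 2 and 4. Control pool 4 was far above the other 6 pools, and the log2 fold change of -0.45 ± 0.37 was 0.15 without it. Aurka, the aurora kinase of spindle poles, differed by -0.17 ± 0.26 and was 0.15 without the same pool. Aurkb, the aurora kinase of the chromosomal passenger complex, differed by -0.32 ± 0.26, and its partners Birc5 (survivin) and Cdca8 (borealin) by -0.28 ± 0.26 and -0.28 ± 0.26. These 3 genes of the passenger complex had edgeR adjusted p of 0.678, 0.703 and 0.708 and kept their sign without each pool in turn. Ttk, the kinase that starts the spindle checkpoint, differed by 0.01 ± 0.33, the largest p of the group. Tpx2, which activates Aurka, and the kinase Pbk lay above 0 at 0.06 and 0.18, and Pbk reached 0.81 without control pool 4 (edgeR unadjusted p = 0.0360).

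The spindle checkpoint and the anaphase-promoting complex gave 4 of 7 genes below 0 and 3 above (median -0.22, edgeR, 0 of 7 past the threshold). Without control pool 4 there were 3 of 7 below 0, with a median of 0.0086. Ube2c, the ubiquitin-conjugating enzyme of the complex, had the highest log2 fold change of the 55. It was read at 13.9, 13.3, 23.1 and 14.9 CPM in βNrf2KO pools, against 10.2, 9.90 and 16.2 CPM in control pools 1, 2 and 4. βNrf2KO pool 3 stood highest, and control pool 4 lay above the other 3 βNrf2KO pools, so the groups overlapped. The difference was 0.42 ± 0.26 (edgeR adjusted p = 0.602), 0.24 with the block and 0.70 without control pool 4 (edgeR unadjusted p = 0.0230). Bub3, a checkpoint protein bound by Bub1, had 27.0 to 38.0 CPM in βNrf2KO and 17.1 to 30.3 CPM in control pools (log2 fold change 0.31 ± 0.22, edgeR adjusted p = 0.639), and the log2 fold change was 0.10 without control pool 2. Its kinase partner Bub1 differed by 0.00 ± 0.24 and the related Bub1b, which encodes BubR1, by -0.26 ± 0.21. Cdc20, the activator that the checkpoint holds back, differed by -0.22 ± 0.31 and Pttg1, the gene of securin, by -0.23 ± 0.24. Cdca3, which helps degrade a Cdk1 inhibitor, differed by -0.41 and was -0.11 without control pool 4.

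Kinetochore and centromere genes were all below 0, 7 of 7, with small differences from -0.31 to -0.05 (edgeR, 0 of 7 past the threshold). Cenpf, a large kinetochore protein, had 18.1 to 23.4 CPM in βNrf2KO and 19.9 to 34.2 CPM in control pools (log2 fold change -0.31 ± 0.20, edgeR adjusted p = 0.623), and the log2 fold change was -0.088 without control pool 4. Ndc80, which holds the microtubule, differed by -0.19 ± 0.29, Cenpa by -0.10 ± 0.24 and Knl1, the scaffold that recruits Bub1 and Bub3, by -0.05 ± 0.19. Without control pool 4 the difference of Knl1 was 0.06, and 5 of the 7 remained below 0.

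Of the mitotic kinesins, the motors of the spindle, 4 of 5 were below 0 and 1 above (median -0.20, edgeR, 0 of 5 past the threshold). Kif20a differed by -0.39 ± 0.23 and had an unadjusted p of 0.0443 by edgeR with the block, but 33.2% of its exon length lies opposite exons of Cdc23, which held 294 to 749 counts per pool. Kif23, a motor of the central spindle, differed by -0.20 ± 0.19, and Kif11, which pushes spindle poles apart, by 0.04 ± 0.24. Spindle and microtubule genes gave 5 of 7 below 0 and 2 above, from -0.34 for Dlgap5 (± 0.22) to 0.04 for Nusap1, which bundles spindle microtubules. Without control pool 4 there were 2 of these 7 below 0, and the median was 0.08 in place of -0.12. Hmmr, a spindle-associated hyaluronan receptor, differed by 0.04 ± 0.32. Tubb4b had 64.2 to 82.0 CPM in βNrf2KO and 60.5 to 93.5 CPM in control pools (log2 fold change -0.06 ± 0.18). The 4 cytokinesis genes split evenly, with 2 below 0 and 2 above, among them Prc1, which bundles the central spindle, at 0.17 ± 0.22 and Ect2, which activates RhoA at the division plane, at 0.02 ± 0.25, and without control pool 4 there was 1 of the 4 below 0.

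Chromosome proteins gave 3 of 5 genes below 0 and 2 above (edgeR, 0 of 5 past the threshold). Mki67 (ENSMUSG00000031004), on the minus strand of chromosome 7 in GRCm38 from 135689784 to 135716361, had 179, 207, 209 and 165 CPM in βNrf2KO pools, against 192, 255 and 278 CPM in control pools 1, 2 and 4. Control pool 1 lay among the βNrf2KO pools, and the other 2 control pools above all of them. The means were 190 ± 21.7 CPM (SD, n = 4) in βNrf2KO and 242 ± 44.8 CPM (SD, n = 3) in control, a log2 fold change of -0.35 ± 0.17 (edgeR adjusted p = 0.571, unadjusted p = 0.0661). With the block it was -0.39 ± 0.17 (edgeR adjusted p = 0.401), and without each pool in turn it lay between -0.49 and -0.24. Hmgb2 was read at 23.6, 34.0, 36.0 and 31.5 CPM in βNrf2KO and 26.1, 61.7 and 37.9 CPM in control pools, where control pool 2 stood far above the rest (log2 fold change -0.42 ± 0.26, and -0.04 as the value closest to 0 when 1 pool was left out). Top2a had 42.6, 39.5, 56.3 and 41.8 CPM in βNrf2KO and 40.2, 32.4 and 58.4 CPM in control pools, and differed by 0.04 ± 0.22. Cdca2, a partner of protein phosphatase 1 on chromosomes, differed by 0.00 ± 0.22 and the condensin subunit Smc4 by -0.15.

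Other genes of mitosis, listed by complex, gave 0 of 116 past the threshold by edgeR, 5 lower (5.23% of all tested genes) and 1 higher (3.23%) at an unadjusted p under 0.05. Of the 116, 63 were below 0 (50.6% of all tested genes), with a median log2 fold change of -0.03, which was 0.04 without control pool 4. The groups did not overlap for 6 of the 116 with βNrf2KO lower (3.81% of all tested genes) and for 5 with βNrf2KO higher (3.19%). The list of other kinesins, spindle and cytokinesis genes had the lowest median, -0.25, with 15 of 19 genes below 0 (50.6% of all tested genes). In this list 4 genes had groups apart with βNrf2KO lower (3.81%) and 0 with βNrf2KO higher (3.19%). Its 2 genes with the smallest p went opposite ways, citron kinase (Cit) at -0.45 ± 0.19 and the importin Kpna2 at 0.50 ± 0.24. Among entry kinases, phosphatases and centrosome genes 12 of 17 were below 0, against 50.6% of all tested genes (median of the 17 -0.18). The centrosome scaffolds Pcnt at -0.58 ± 0.23 and Cdk5rap2 at -0.46 ± 0.19 led them. Pcnt was read at 28.6 to 35.4 CPM in βNrf2KO and 36.7 to 70.7 CPM in control pools, which did not overlap. Of the 17, 2 were apart with βNrf2KO lower (3.81% of all tested genes) and 1 with βNrf2KO higher (3.19%). Condensin, cohesin and separase genes had a median of -0.08 over 19 genes (-0.02 without control pool 4), with the cohesin core Smc1a at -0.52 ± 0.21 and the condensin subunit Ncapg2 at 0.40 ± 0.19. The 33 other kinetochore and checkpoint genes had a median of -0.02 (0.03 without control pool 4), with Mad1l1 at -0.51 ± 0.26 and Cenpp at -0.35 ± 0.25.

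Lists of 2 regulating complexes had medians above 0. For the 17 subunits and regulators of the anaphase-promoting complex the median was 0.10 (0.22 without control pool 4), with 5 below 0 (50.6% of all tested genes). The groups were apart with βNrf2KO higher for 3 of the 17 (3.19%) and with βNrf2KO lower for 0 (3.81%). Cdc26 and Anapc4 differed by 0.33 ± 0.17 and 0.29 ± 0.16. Genes of the DREAM and MuvB complex, which keeps the programme silent in resting cells and later carries B-Myb, had a median of 0.02 over 11 genes, which was -0.028 with the block and 0.13 without control pool 4. E2f5, a repressor E2F, was read at 19.3 to 21.7 CPM in βNrf2KO and 15.2 to 15.9 CPM in control pools, with every βNrf2KO pool above every control pool. It was the only 1 of these 11 genes whose groups were apart (3.19% of all tested genes with βNrf2KO higher). Its log2 fold change was 0.41 ± 0.16 (edgeR adjusted p = 0.571, unadjusted p = 0.0262), and E2f4, the other repressor of this complex, differed by 0.24 ± 0.16. All 12 genes named from these lists had edgeR adjusted p between 0.571 and 0.635.

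Some values rest on reads that may be shared with other genes. Exons of 14 of the 55 genes overlap exons of another gene, and no source used here states whether counting used strand, so such reads cannot be told apart. The overlap is 33.2% of exon length for Kif20a, 22.8% for Ube2c (opposite Tnnc2, which held at most 3 counts in a pool), 12.5% for Ccna2 and 11.1% for Prc1, and 2.5% for Foxm1 with Tex52. Near-identical copies, defined as at least 95% identity over at least 200 bases of transcript, exist for 7 of the 55 (Ccnb1, Cdc25c, Cks2, Hmgb2, Mki67, Pbk and Tubb4b), and each copy held at most 10 counts in a pool. How reads with several matches were counted was not given, so the levels of these 7 genes are uncertain by the reads their copies attract.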

How the data were processed

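Ribosome-depleted total RNA of islets was sequenced in 7 pools (4 βNrf2KO, 3 control). The authors deposited unnormalized counts of reads for each gene. Tools named in the submitters' processing notes are Subread 1.5.2 (featureCounts), STAR 2.5.2b, Trimmomatic 0.36 and bcl2fastq 2.20. Strand use, the handling of multiply matching reads and the release of the annotation: not given in the sources used here. Those notes name GRCm39, but 44858 of 49056 gene IDs shared with GENCODE M21 (91.4%) have its GRCm38 start and end, so coordinates are given as GRCm38. Exon lengths, also deposited, gave RPKM. Neither library sizes nor tests include the Cre entry, and 7 columns of a combined table were not used.

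The test on counts was that of edgeR 4.0.16 (under R 4.3.3; TMM, filterByExpr, robust quasi-likelihood fit, two-sided) with Benjamini-Hochberg adjustment over 19893 genes at 0.05. CPM and RPKM use TMM-scaled library sizes, and log2 CPM a prior count of 2. The code was tested on simulated data. Alternatives were RLE scaling, mitochondrial genes left out, no filter, 1 CPM in 3 pools, DESeq2 1.42.0, limma-voom (limma 3.58.1), a block for the pool number and leaving out each pool. Deviations from the group mean correlated at r = 0.376, 0.229 and 0.323 over genes for pools numbered 1, 2 and 4 in both groups (pools of unlike number -0.353 to 0.241), so the numbers were taken to pair the pools. This pairing comes from the correlations alone, as no label explains the numbers, and p-values measure only the spread between pools. βNrf2KO pool 3 has no control pool of its number and does not enter the difference in the block fit. Counting error follows the counts of each gene, out of totals of 18187382 to 25373105, and a count of 0 allows 3 counts (0.118 to 0.165 CPM before TMM scaling).

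The members, gene lists and tests were chosen with earlier results of these data known. Genes were named by rule: 26 members always, in each role the members with the smallest and the largest p, members whose groups did not overlap, and the 2 genes with the smallest p of each other list. Members outside the rule that are given with values (Hjurp, Kif2c, Cdc25c, Cdca8, Tpx2, Pbk, Pttg1, Cdca3, Nusap1, Smc4) were chosen after their values were seen, as were the count ratios. Sequences are from RefSeq (GRCm38.p6), and 38 of the 45 windows match a GENCODE M21 transcript of their gene in the last 30 bases.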

Additional observations from a re-analysis of the deposited data

Results flagged for a closer look

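In the 4 βNrf2KO pools, 2 of the 47 named genes had a pool far from the others by Dixon's test of the gap over the range, where chance gives about 1 in 20 groups. Foxm1 was highest in βNrf2KO pool 3, at 4.92 log2 CPM, with the other 3 pools close together. Anapc4, a subunit of the anaphase-promoting complex, was lowest in βNrf2KO pool 1, at 5.68 log2 CPM. Groups of 3 pools were not tested. The Cre recombinase entry, which is outside the gene tests, held 24, 23, 46 and 73 counts in βNrf2KO pools 1, 2, 3 and 4 and 0 in every control pool.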

How the results depend on the processing

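No member passed the threshold under any of the 14 alternatives. The count of all genes past it, 0 by edgeR, was 1 by DESeq2, 14 with the pool number as a replicate block and 0 to 1 when 1 pool was left out. Members lower at an unadjusted p under 0.05 were 2 by edgeR, 1 without a filter, 1 by DESeq2, 0 by limma-voom, 6 with the block, 0 with the 14 members that share exon bases left out (an alternative chosen after seeing the data, which removes Foxm1 and Cdc25b) and 0 to 8 when 1 pool was left out, the 8 without control pool 1. Members higher numbered 0, and 0 to 3 when 1 pool was left out. These 3 were Ccnb1, Pbk and Ube2c, without control pool 4. The median of the 55 was -0.17 to -0.19 under scaling, filter and DESeq2, -0.14 by limma-voom and -0.30 to -0.02 when 1 pool was left out. Members below 0 numbered 29 to 52 when 1 pool was left out.

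Of the 47 genes named by rule 30 kept their sign under all alternatives. When 1 pool was left out, log2 fold changes ran from -0.25 to 0.31 for Ccna2, -0.0029 to 0.62 for Ccnb1, -0.41 to 0.26 for Cks1b, -0.69 to 0.15 for Plk1, -0.32 to 0.15 for Aurka, -0.23 to 0.38 for Ttk, -0.17 to 0.25 for Bub1, -0.47 to 0.0086 for Cdc20, -0.17 to 0.056 for Knl1, -0.24 to 0.049 for Cenpa, -0.12 to 0.33 for Kif11, -0.18 to 0.52 for Hmmr, -0.20 to 0.11 for Tubb4b, -0.16 to 0.38 for Ect2, -0.0067 to 0.36 for Prc1, -0.14 to 0.31 for Top2a and -0.12 to 0.18 for Cdca2. With the replicate block the sign turned for Ttk (-0.095), Bub1 (-0.048), Kif11 (-0.058), Hmmr (-0.050), Ect2 (-0.045), Top2a (-0.043) and Cdca2 (-0.10), and no call on a member changed. By limma-voom it turned for Ccna2 (0.036), Ttk (-0.024), Bub1 (-0.0043) and Cdca2 (-0.016), and with the 1 CPM filter for Bub1 (-0.0037) and Cdca2 (-0.0045). Members given with values outside the naming rule are not among the 47. Of these, Tpx2 (-0.080 to 0.28), Pbk (-0.11 to 0.81) and Nusap1 (-0.14 to 0.31) turned when 1 pool was left out. With the block Tpx2 (-0.042) and Nusap1 (-0.15) turned too. The cause of these turns was not tested.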
